A study of Mus musculus with 2 samples.

Results

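The regions described here are dense clusters of FoxO3 peaks in myotubes, each of 20 to 80 peaks. Peaks of the myotube list were sorted by position and joined where the gap to the next peak was at most 12000 bp, and every peak of a cluster of 20 to 80 peaks was kept. This gave 101 clusters with 3704 peaks, which is 8.15% of the 45457 myotube peaks (95% Wilson interval 7.90% to 8.403%). As peaks enter by whole clusters, that interval is too narrow. The series measured FoxO3 occupancy by ChIP-seq (sequencing of the DNA that an antibody to the protein pulls down from sheared chromatin) in C2C12, an established mouse myoblast line whose cells fuse into myotubes. Cells were grown in DMEM with serum and then switched to differentiation medium with horse serum. The myotube sample was taken at hour 72 of differentiation medium and the myoblast sample at hour -24, with the same anti-Foxo3 antibody and no genetic change named in the labels. Each group was 1 library with 1 deposited peak list (501 peaks for myoblasts), so there was no replicate check, and no value below carries an error between cultures. The clusters were chosen by the positions of the myotube peaks, so every value taken from the myotube list describes them and tests nothing.

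FoxO3 is a forkhead transcription factor. Insulin and growth factor signalling keeps it out of the nucleus through phosphorylation by Akt, and in muscle it is known for turning on genes of protein breakdown and autophagy. A transcription factor usually gives a few strong peaks at promoters and enhancers, and groups of enhancers close together, called super-enhancers, are the subject named in the title of the series. A gene body with many exons has another layout, in which short exons are separated by introns of very unequal length and the first intron is often the longest. No mm9 gene annotation was used here, so the genes under the clusters are not named, and overlap with exons was not analysed here. What follows is what the peak lists themselves hold on span, spacing, width and strength, with positions on mm9 counted from 1.

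The clusters were long stretches of many weak peaks. The median span was 59.2 kb, from 27.1 to 141.7 kb, with quartiles of 45.9 and 74.2 kb. The median number of peaks was 32 (quartiles 23 and 48), and the highest was 77. Together the 101 clusters spanned 6.35 Mb, of which the peaks themselves covered 14.02%. Density ran from 0.238 to 1.16 peaks per kb, with a median of 0.574, and 10 clusters held more than 1 peak per kb. Span and number of peaks went together only loosely across the 101 clusters (Pearson r = 0.50, Spearman rho = 0.50, given as a description, since both come from 1 library and the rule bounds the number of peaks).

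**Figure D1:**
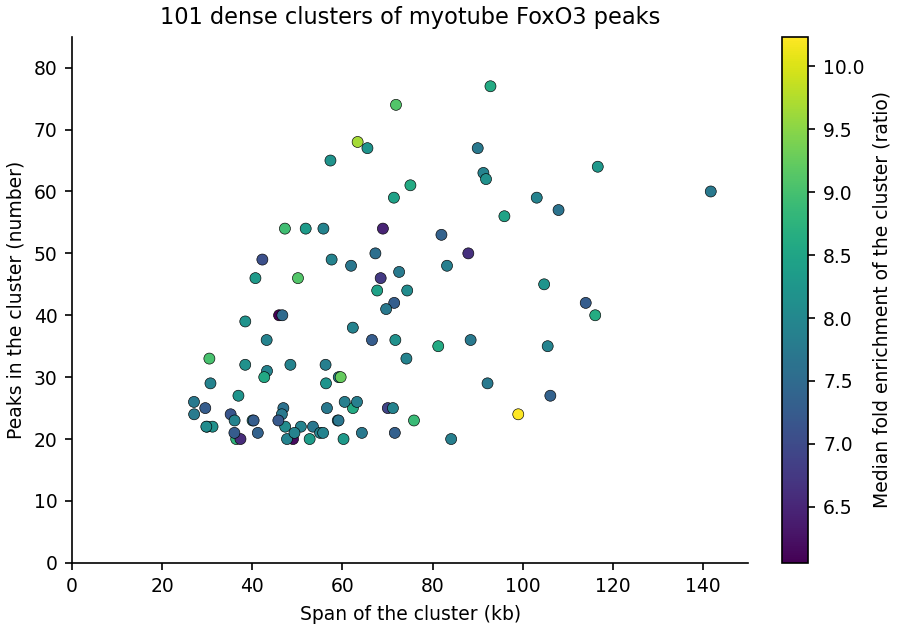
Each point is 1 of the 101 clusters, with its span in kb on the horizontal axis, its number of peaks on the vertical axis and its median fold enrichment as colour. Clusters with fewer than the median of 32 peaks are found at spans from 27.1 to 106.1 kb, and the longest, at 141.7 kb, holds 60 peaks.

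The cluster with the most peaks lay at chr16:96221044-96313860 and held 77 peaks over 92.8 kb. It was followed by chr10:62199503-62271368 with 74 peaks over 71.9 kb and by chr1:152244762-152308124 with 68 peaks over 63.4 kb. A tie at 67 peaks followed between chr14:48284323-48374312 over 89.99 kb and chr2:29823297-29888831 over 65.5 kb. The next were chr1:164595263-164652594 with 65 peaks over 57.3 kb, chr12:52788563-52905173 with 64 over 116.6 kb, chr1:60262675-60353924 with 63 over 91.2 kb, chr13:100791112-100882942 with 62 over 91.8 kb and chr4:106034287-106109350 with 61 over 75.1 kb. At similar numbers of peaks these 10 clusters thus differed in density, from 0.549 peaks per kb on chromosome 12 to 1.13 in the chromosome 1 cluster that starts at 164595263.

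The longest cluster was chr4:144643362-144785031, with 60 peaks over 141.7 kb. The other long clusters were the one on chromosome 12 named above, chr1:34167823-34283871 (40 peaks, 116.05 kb), chr10:12345720-12459662 (42 peaks, 113.9 kb) and chr9:66231147-66339062 (57 peaks, 107.9 kb). The densest was chr15:81437189-81479421, with 49 peaks in 42.2 kb and peaks over 41.95% of its length. Next in density were chr13:12487492-12534729 (1.14 peaks per kb), the cluster on chromosome 1 from 164595263 (1.13), chr14:31838764-31879458 (1.13) and chr8:83225873-83256356 (1.08). The longest clusters were therefore not the densest, and the median gap between peaks was 1345 bp in the longest against 327 bp in the densest.

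Few clusters lay next to the bounds of 20 and 80 peaks, with only 1 on each side of the upper bound. The values there cannot show whether a bound falls at a break. A median fold of 7.93 was shared by all peaks in clusters of 10 to 19 and of 20 to 80. Yet the shares of these peaks at a fold of at least 10 differed, at 26.2% and 18.4%. The 7 clusters of 20 peaks had a median span of 49.0 kb (36.4 to 84.1 kb), and the 7 clusters of 19 peaks had 46.1 kb (26.6 to 64.5 kb), with the median of their median folds at 7.93 in both. At the upper bound, the cluster of 77 peaks on chromosome 16 had a median fold of 8.59, and the next larger, 81 peaks at chrX:148286905-148366374, had 8.22 over 79.5 kb.

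Neighbouring peaks were separated by gaps of very unequal length. The 3603 gaps had a median of 714 bp and quartiles of 315 and 1736.5 bp, and they ran from 76 bp, which was also the smallest gap of the whole list, to 11998 bp, just under the joining distance. Of these gaps, 36.1% lay from 300 to 1000 bp and 25.3% from 1000 to 3000 bp. Gaps from 100 to 300 bp made up 21.1%, gaps of 3000 bp or more 14.5% and gaps under 100 bp 2.94%. Within a cluster the standard deviation of the gaps was a median of 1.15 times their mean (0.696 to 2.39), so the peaks were not evenly spaced. Whether this spacing differs from that of peaks placed at random was not tested, so it does not show a layout of exons. Distances between neighbouring summits had a median of 990 bp, and 16 of 3603 were under 200 bp.

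**Figure D2:**
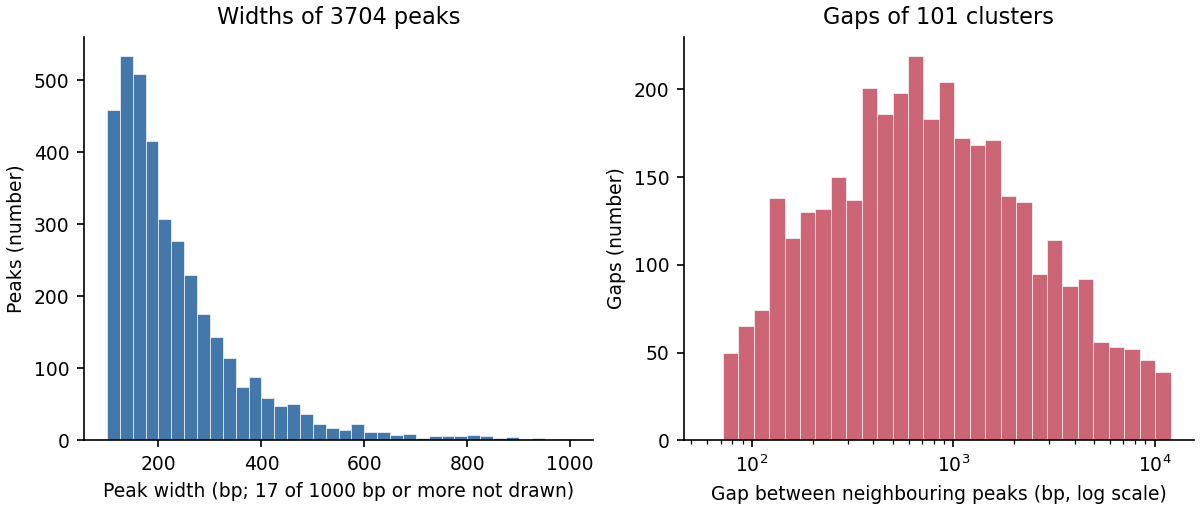
The left panel counts the 3704 peaks by width in bp in bins of 25 bp, and the right panel counts the 3603 gaps between neighbouring peaks by length on a log scale. Widths pile up below 300 bp, and gaps form a single broad hump around the median of 714 bp.

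The peaks were short, but not shorter than over the whole list. Their median width was 196 bp (quartiles 146 and 280), beside 186 bp over the whole list. Of the 3704, 2913 (78.6%) were 122 to 300 bp wide. The smallest width of the list, 122 bp, was found for 422 peaks (11.4%, against 11.98% of the whole list), which may be a limit of the calling. A peak of 1000 bp or more occurred 17 times, in 7 clusters. The widest, 2673 bp, lay at chr1:152280739-152283411, and 7 of these 17 wide peaks belonged to that same cluster, whose median width was 319.5 bp. Clusters with more peaks per kb tended to have wider peaks (Pearson r = 0.50, Spearman rho = 0.46 over 101 clusters, a description within 1 library).

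A run of successive peaks serves as an example. In the densest cluster, on chromosome 15, the peak at chr15:81440697-81441004 was 308 bp wide with a fold enrichment of 7.53. After a gap of 858 bp came a peak of 184 bp and fold 5.80, after 1259 bp one of 238 bp and fold 5.80, and after only 131 bp one of 529 bp and fold 9.56. The next lay 929 bp on, 122 bp wide with a fold of 6.46, and a further 788 bp on came one of 244 bp with a fold of 7.80. Peaks with folds from 5.80 to 9.56 thus followed each other at irregular steps, with no peak in this stretch above a fold of 10. Elsewhere this cluster held 5 peaks of fold 10 or more. Its median width of 281 bp and median background of 2.59 reads were above the 196 bp and 1.59 reads of all cluster peaks.

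Fold enrichment, the authors' ratio of reads at the summit over local background, was modest and even. The median over the 3704 peaks was 7.93 (quartiles 6.61 and 9.39), and the cluster medians ran only from 6.06 to 10.24. Within a cluster the third quartile of fold was a median of 1.399 times the first (1.103 to 1.95). Over the whole list it was 1.68 times, an unlike measure, since that pools all regions. Pooled quartiles were 6.61 and 9.39 here, 6.79 and 9.91 in clusters over 80, and 6.92 and 11.6 over the whole list. The larger clusters thus had a similar spread. A fold of at least 10 was reached by 682 of the 3704 peaks (18.4%, 17.2% to 19.7%), beside 35.4% of all myotube peaks. A fold of at least 20 was reached by 19 (0.513%, 0.329% to 0.800%), beside 5.88% of all myotube peaks. These folds are of the same list that chose the clusters and are given as a description.

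The reads behind these peaks were few. The number of reads at each summit was recovered from the deposited fold and p-value for all 3704 peaks. It had a median of 14 reads (quartiles 12 and 17), and 3305 peaks (89.2%) had at most 20. The median background was 1.59 reads, beside 2.07 over the whole list. Background lay within 5% of the most frequent value of the list, 1.51 reads, at 49.8% of cluster peaks and 33.1% of all myotube peaks. A peak of 12 reads over that background has a fold of 7.93, and 224 cluster peaks carried exactly this fold, so at this depth 1 read more or less moves a fold visibly. The median −log10 q-value was 6.17, beside 8.51 over the list. Background over 3 times the most frequent value, called raised here, was found at 30 cluster peaks (0.810%, beside 3.58% of the list), and 84 of 101 clusters had none.

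Set beside the other myotube peaks, the clusters of 20 to 80 and the 6 larger clusters had the lowest shares of high folds. A fold of at least 10 was reached by 38.1% of the 13876 isolated peaks (37.3% to 38.9%), 38.02% of the 15303 peaks in clusters of 3 to 9, 26.2% of the 3144 peaks in clusters of 10 to 19 (24.7% to 27.8%), 18.4% here and 21.9% of the 800 peaks in clusters over 80 (19.1% to 24.9%). The share was thus lower from 10 peaks up, and the interval of the clusters over 80 overlapped that of the clusters of 20 to 80. Median reads were 19 at isolated peaks, 15 in clusters of 10 to 19 and 14 in both larger classes. Median widths did not follow the order of the fold shares, at 176 bp for isolated peaks, 194 bp in clusters of 3 to 9, 187 bp in clusters of 10 to 19, 196 bp here and 204 bp in clusters over 80. Among peaks of 12 to 14 reads, the median width was 142 bp for 2378 isolated peaks (quartiles 122 and 183), 150 bp for 2640 peaks in clusters of 3 to 9, 163 bp for 884 in clusters of 10 to 19, 177 bp for 287 in clusters over 80 and 177 bp for the 1354 peaks here (quartiles 137 and 246). These intervals cover counting error within 1 library, and the peaks of a cluster are not independent of each other.

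**Figure D3:**
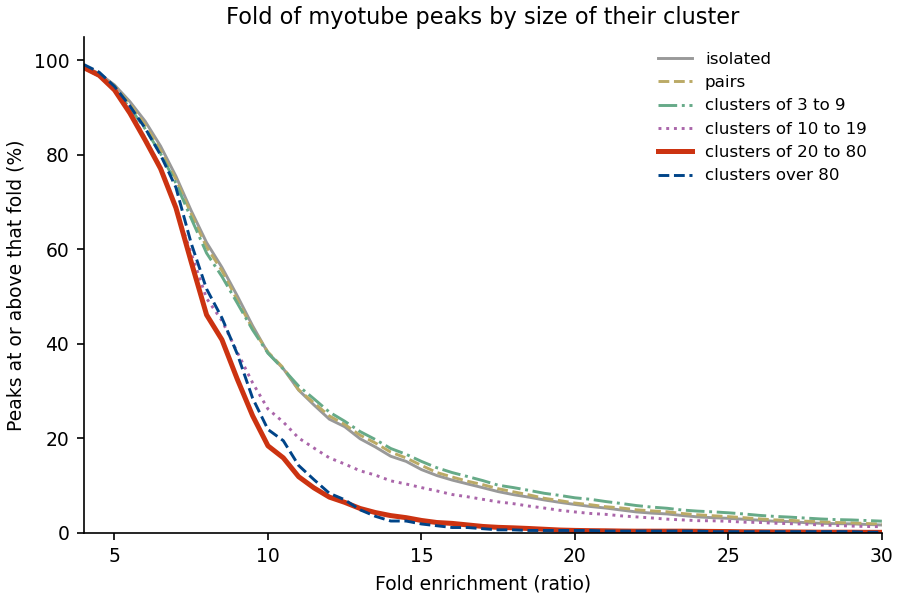
Each line gives the percentage of myotube peaks at or above a fold enrichment (horizontal axis, a ratio) for isolated peaks, pairs and clusters of 3 to 9, 10 to 19, 20 to 80 and over 80 peaks. At a fold of 10 the line of the clusters of 20 to 80 is at 18.4% and that of isolated peaks at 38.1%.

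A few clusters held a peak that stood out from its neighbours. The highest fold in a cluster had a median of 14.5 (9.25 to 49.1), and it was under 1.1 times the second-highest in 48 of 101 clusters and at least 1.5 times in 12. The 19 peaks of fold 20 or more lay in 14 clusters, and 4 clusters had no peak of fold 10. The strongest, with a fold of 49.14 and 93 reads over a background of 1.89, lay at chr3:88433745-88434431, near the middle of a cluster of only 20 peaks at chr3:88411347-88464066. A second strong peak of the same cluster, at chr3:88435989-88436445, had a fold of 26.42, while the 3 peaks between them had folds of 8.01, 7.25 and 4.42. The last peak of this cluster had a fold of 19.17, and the median of the cluster was 8.36.

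Each of the next 4 strongest was the only peak of fold 20 or more in its cluster. The peak at chr1:34221521-34221791 had a fold of 37.67 with 57 reads, where the second-highest of its 40-peak cluster was 18.8 and the cluster median 8.62. At chr19:36934920-36935336 the fold was 33.05 with 50 reads, 2.70 times the second-highest of the cluster chr19:36931743-36962465, the largest such ratio among the 101. The peak at chr18:32514411-32514926 had a fold of 32.23 in the cluster chr18:32499708-32605215. The peak at chr17:47112194-47112421 had 29.26 in the cluster chr17:47073662-47132830. In all 3 of these last clusters the median fold was 7.93, the same as over all cluster peaks.

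The clusters with the highest median fold were of different kinds. The highest, 10.24, was found at chr1:136162427-136261408, a sparse cluster of 24 peaks over 98.98 kb with a median gap of 2723 bp, in which 14 peaks reached a fold of 10. The second, 9.67, was the dense cluster on chromosome 1 from 152244762, in which 29 of 68 peaks reached a fold of 10, with a median gap of 218 bp, the smallest of all 101. Next were chr3:116451167-116510762 with 9.25, the 74-peak cluster on chromosome 10 from 62199503 and chr10:114821171-114871298, both with 9.10. Density and median fold were only weakly related over the 101 clusters (Pearson r = 0.14, Spearman rho = 0.15, a description).

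Of the 5 clusters of lowest median fold, 4 lay on chromosome 15. They were chr15:12066214-12112150 with 6.06, chr15:8069678-8118711 with 6.17, chr15:37898833-37967793 with 6.48 and chr15:8227996-8315901 with 6.64. The other was chr10:57725602-57762978 with 6.57. Reads at the cluster peaks on chromosome 15 had a median of 17, against 14 over all clusters. Background was higher there, with a median of 2.59 reads at the 213 cluster peaks of chromosome 15 and 3.10 reads at all myotube peaks of that chromosome, against 1.59 and 2.07 over all chromosomes. The cluster on chromosome 10 with a median fold of 6.57 had medians of 14 reads and a background of 1.60. Fold is reads over background, and why it was low in these clusters was not tested.

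**Figure D4:**
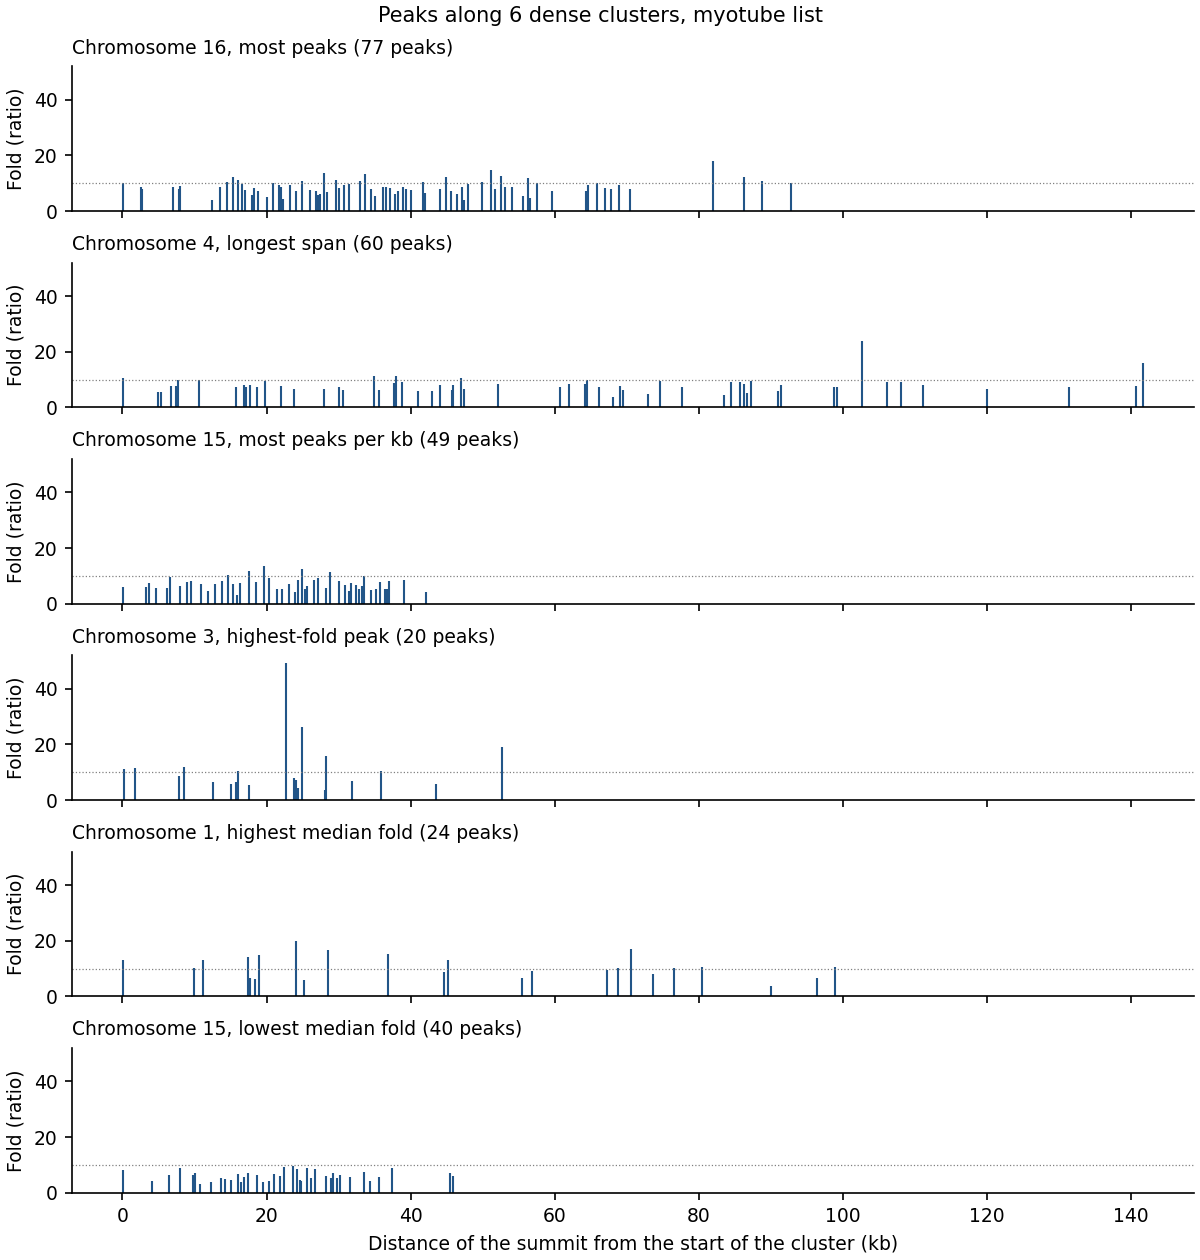
Each panel draws 1 cluster, with a vertical line for each peak at its distance in kb from the start of the cluster and the height of its fold enrichment (a ratio); the dotted line marks a fold of 10. Peaks of similar low height fill most panels, while the cluster on chromosome 3 has one peak at 49.14 and the lowest cluster on chromosome 15 has none above the dotted line.

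The strongest peak of a cluster was found in every section of 10% of the span, and more often than by length at the very ends. It lay in the outer 10% at either end in 23 of 101 clusters (22.8%, 15.7% to 31.9%), where these ends make up 20% of the length. In 18 of the 101 (17.8%, 11.6% to 26.4%) it lay in the outer 5% at either end, which make up 10% of the length. It was the very first or last peak in 13 clusters (12.9%, 7.68% to 20.8%). End peaks are 5.45% of all cluster peaks. That pooled share is weighted to large clusters and lies below the mean share per cluster, so it overstates the excess at the ends. By definition the first and last peak always lie at the ends of the span. Where the highest folds tied, the peak at the lower coordinate was taken. In 48 of 101 clusters the highest fold was under 1.1 times the second-highest, so which peak is strongest is often poorly resolved. With clusters of 15 to 80 peaks the strongest peak was in the outer 10% in 43 of 155 (27.7%), and with joining at 25000 bp in 50 of 183 (27.3%), while joining at 5000 bp gave 12 of 73 (16.4%). Among these were chr2:29823297-29888831, where the last of 67 peaks had the highest fold, 19.17, and chr2:155976908-156018129, where the last of 21 peaks had a fold of 24.75 and the second-highest was 16.4. The 202 end peaks of the 101 clusters reached a fold of 10 in 24.3% of cases (18.9% to 30.6%), against 18.1% of the 3502 inner peaks (16.8% to 19.4%), and had the same median fold, 7.93. End peaks were narrower, with a median width of 173.5 bp against 197 bp.

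The longest gap, in contrast, was mostly near an end. In 62 of 101 clusters (61.4%, 51.6% to 70.3%) it was among the outer 10% of gaps on either side, 28 at the low coordinate and 34 at the high coordinate. It took a median of 12.9% of the span (6.87% to 28.5%). Peaks were fewer in the outer parts too: the 2 outermost sections of 10% of the span at each end held 7.99% to 8.21% of the peaks each, and the 4 sections around the middle 11.6% to 12.4% each. The joining rule adds any listed peak within 12000 bp of a dense stretch, which by its construction can put a long gap at an end. With joining at 5000 bp the longest gap was at an end in 40 of 73 clusters (54.8%). How much of the pattern comes from such added peaks was not tested. The side of the midpoint with more peaks, which by definition holds at least 50%, held a median of 59.1% of them (50% to 83.3%). In 29 of 101 clusters it held at least 66%. How often counting alone would give such a split was not tested.

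**Figure D5:**
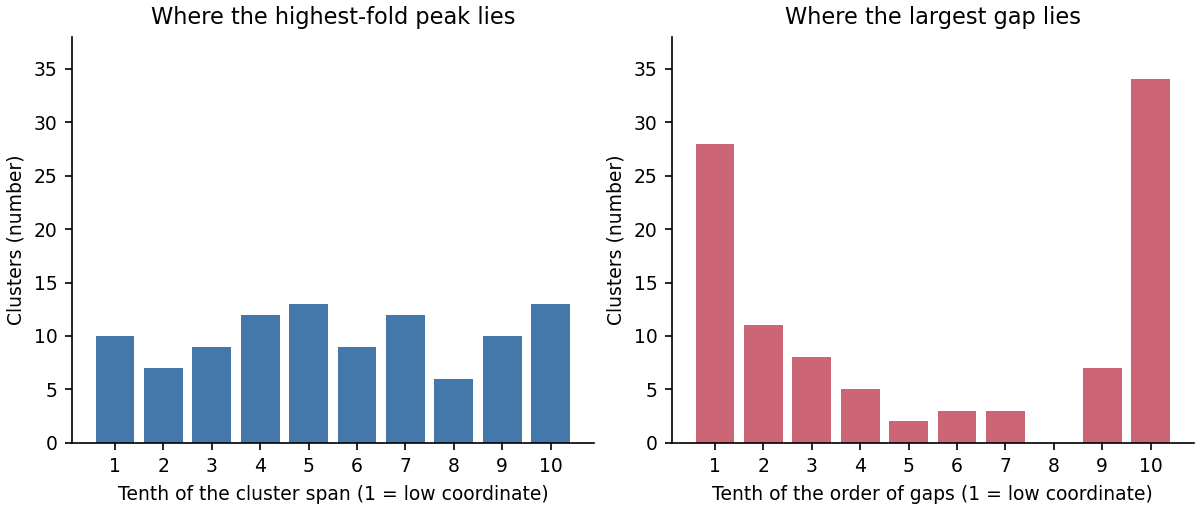
The left panel counts the 101 clusters by the 10% of the span that holds their highest-fold peak, and the right panel by the 10% of the order of gaps that holds their longest gap, both from low to high coordinate. The left counts run from 6 to 13, in sections too broad to show the 18 clusters with their highest-fold peak in the outer 5%, and the right counts are 28 and 34 at the ends and at most 11 elsewhere.

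Some clusters were close to each other. The nearest pair, chr1:34167823-34283871 (40 peaks) and chr1:34297831-34365131 (50 peaks), was separated by 13959 bp without a peak, just over the joining distance. The clusters chr19:36931743-36962465 and chr19:37036524-37095651 were 74.1 kb apart with 1 peak between them, and chr10:62080176-62107243 and chr10:62199503-62271368 were 92.3 kb apart with none. The pair on chromosome 15, from 8069678 and from 8227996, was 109.3 kb apart with 4 peaks between, and a pair on chromosome 10, from 57725602 and from 57904186, was 141.2 kb apart with 19. In general the clusters had a listed peak not far outside. The nearest one lay a median of 20983 bp away (12021 to 155632 bp), and in 9 clusters over 50 kb away.

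The clusters were unequally spread over the chromosomes. Chromosome 1 had 18 clusters and chromosome 10 had 12, and these held 18.2% (16.96% to 19.4%) and 14.4% (13.2% to 15.6%) of the peaks of their chromosomes, where the share was 8.15% over the list. On chromosome 2 the share was 5.24% of 3756 peaks, in 5 clusters, although its total was close to the 3801 of chromosome 1. The upper bound of 80 peaks leaves out 2 larger clusters there, with 379 peaks, and with them 15.3% of the peaks of chromosome 2 lay in clusters of 20 or more. Chromosomes 7 and X had 1 cluster each, with 1.89% (1.36% to 2.62%) and 3.36% (2.30% to 4.88%) of their peaks. Chromosome X also had the cluster of 81 peaks just over the bound, with which its share was 13.8%, and chromosome 7 had no larger cluster. As all peaks of a cluster count together, these intervals are too narrow.

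The myoblast list, which was not used to choose the clusters, held 1 peak in the same regions, where its mean density over all chromosomes would put 1.23. None of the 3704 cluster peaks overlapped a myoblast peak by 1 bp or more, beside 0.224% of all myotube peaks (102 of 45457), and 0 of 3704 allows a share of up to 0.0810%. Overlap was rarer at peaks of few reads. Among all myotube peaks of at most 20 reads without raised background, 18 of 27569 overlapped (0.0653%, 0.0413% to 0.103%). Among the 3290 cluster peaks of that kind 0 did, which allows up to 0.0912%, so at this depth no difference from other weak peaks was detectable. The 1 myoblast peak of 498 on the nuclear chromosomes that lay within the 6.35 Mb of the clusters gave 0.157 per Mb (exact Poisson interval 0.00399 to 0.877), an interval that includes the 0.194 per Mb of all chromosomes. It lay at chr10:62754374-62754449 with a fold of 19.57 and 12 reads, inside the 21-peak cluster chr10:62713916-62785523, and 281 bp from the nearest myotube peak, which had a fold of 8.54.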

How the data were processed

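The authors deposited 1 peak list per sample, in the narrowPeak layout per the file headers, and the submitters' processing notes name MACS2 2.1.0 and mm9. The aligner, control library and threshold were not given in the sources used here. Each row holds, per the file headers, a fold enrichment (a ratio), p and q as −log10 values and a summit; the deposited score repeats the −log10 q-value. Depth was not given as counts. The reads at a summit were recovered as the whole number whose Poisson probability of being exceeded, at a background of reads over fold, matched the deposited p-value within 0.02 on the log10 scale beyond rounding of the fold. As a check of the code, 100% of 2000 pileups made with this same Poisson formula were recovered. So were 40 of 40 clusters planted on an empty line with gaps within the joining distance. Both results followed from how the input was made, so they do not show how well these steps work on the real peaks. Clusters, intervals and overlaps were computed with scipy 1.17.1, pandas 2.3.3 and numpy 2.4.6 under Python 3.11.15. Wilson and Poisson 95% intervals and the limits for a count of 0 (3 counts) cover counting error only. With 1 library per group no test was made.

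Regions were named by rank in peak number, span, density, highest fold and median fold, by a myoblast peak inside, and at the bounds of the rule; peaks, pairs of clusters and other regions given as examples were chosen after their values were seen. The members and lists were chosen with earlier results of these data known. Planned counts of genes and exons were not made for want of an mm9 annotation. Alternatives were other joining distances, a stricter q-value, other cluster sizes, other overlap rules and another width of the cluster ends. The position of the longest gap, and the removal of raised background, were added after seeing the data.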

Additional observations from a re-analysis of the deposited data

How the results depend on the processing

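Of 63 alternative values, 33 stayed within the interval of the median or within 1.5 times of a count and 30 moved. Counts were compared as counts, although each setting keeps another number of clusters and peaks. At a −log10 q-value of 5 or more, 557 peaks of fold 10 or more counted as unmoved. Their share was 27.5% of 2027 peaks, against 18.4% under the rule used here. With joining at 25000 bp the share was 24.2%, and the other settings gave 17.9% to 19.2%. Joining at 25000 bp gave 183 clusters with 5997 peaks, a median span of 113.9 kb, a median gap of 1195.5 bp, 1453 peaks of fold 10 or more, 4 overlapping a myoblast peak, the strongest peak in the outer 10% in 50 clusters and the longest gap at an end in 96. Joining at 5000 bp gave a median span of 39.7 kb, gap of 571 bp and width of 203 bp, with end counts of 12 and 40 of 73 clusters. Raising the −log10 q-value to 5 or more gave 59 clusters with 2027 peaks, a gap of 795 bp, width of 221 bp and fold of 8.81, with end counts of 13 and 37. Clusters of 15 to 80 peaks numbered 155, with a span of 52.7 kb, a gap of 818 bp and the strongest peak at an end in 43. Clusters of 30 to 80 peaks numbered 56, with a span of 68.7 kb, a gap of 629 bp, a width of 202 bp and end counts of 11 and 36. These moves follow in part from the number of clusters each setting keeps, and beyond that the cause was not tested. As shares of clusters, the strongest peak and the longest gap were at an end in 22.8% and 61.4% under the rule used here. The shares were 22.0% and 62.7% with the stricter q-value and 19.6% and 64.3% with 30 to 80 peaks. Joining at 5000 bp gave 16.4% and 54.8%, joining at 25000 bp 27.3% and 52.5%, and 15 to 80 peaks 27.7% and 56.1%. With the stricter q-value the end shares were thus close to those here. Without raised background, there were 99 clusters and none of the other values moved either. Settings for genes and exons were not run. No paired analysis was possible because a single library stood for each group. The median of 14 reads per peak limits how finely folds can be ranked.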
